A study of Mus musculus with 2 samples.

Results

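The promoters of the genes that encode cytosolic ribosomal proteins (RPs) were examined for open chromatin in cells sorted by an Olig2 reporter during neural differentiation. The members were the protein-coding genes of the GENCODE mouse annotation whose symbol is Rpl or Rps followed by a digit, together with Rpsa, Rplp0, Rplp1 and Rplp2 and without the Rps6k kinase genes. The rule found 92 of 21938 protein-coding genes, and 81 of them had an accessible interval at a transcription start site (TSS). By name, 77 of the 92 are the canonical RP genes (43 of the large subunit, 31 of the small subunit and 3 of the stalk). The other 15 are paralogs, intronless copies annotated as protein-coding, and Rps19bp1, whose product binds Rps19 and is not itself an RP.

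The measurements were 2 ATAC-seq libraries of 1 group, made with live cells. ATAC-seq uses the transposase Tn5 to insert adapters into accessible DNA. Mouse embryonic stem cells of the Olig2-mKate2 line, in which the red fluorescent protein mKate2 reports Olig2, were differentiated towards spinal cord identity and taken at day 5 under 100 nM SAG (a Smoothened agonist) and 100 nM retinoic acid. The mKate2-positive cells were sorted, and 50000 went into each transposition, so a value is a mean over many cells of 1 reporter line. The paper states that cells sorted by this reporter also take in newly formed motor neurons and some cells positive for both OLIG2 and NKX2.2. Fragment counts over 119502 consensus intervals came to 31876165 in replicate 1 and 31672240 in replicate 2, with a median of 65 and 66 per interval. The 4 progenitor genes Olig2, Nkx6-1, Sox2 and Pax6 all had a TSS interval, as did 66.7% of all protein-coding genes. Such an interval cannot by itself show the identity of the sorted cells. Of 5 markers of other tissues, Alb, Ins2, Cd3e and Gata1 had none, and Myod1 had a weak one of 172 ± 9.96 normalised counts per kb.

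The ribosome is built from ribosomal RNA and a set of RPs, which form a small subunit that decodes the mRNA and a large subunit that joins the amino acids. A flexible stalk on the large subunit, made of Rplp0, Rplp1 and Rplp2, recruits the translation factors. RP genes are active in every growing cell and are scattered over the genome. Their mRNAs begin with an oligopyrimidine tract (the TOP element), a C followed by further pyrimidines, through which growth signals control their translation. At the DNA level the matching start site is called the TCT initiator.

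The bases around the annotated TSS show how far the members share this start. The windows below run from 60 bases before the TSS to 19 bases after it, on the transcribed strand, and were read from the GRCm38.p6 (mm10) genome of RefSeq at the start of 1 representative GENCODE M21 transcript per gene. Capitals mark the longest run of pyrimidines touching positions −5 to +10 (the TSS base is position 0), any match to the ETS-family (GABP) letters CCGGAAG on either strand, the TATA box letters TATAAA and the YY1 letters AANATGGC.

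The first set holds 2 of the most open promoters. They are Rpl37 (chr15:5116585-5116664, + strand) and Rpl13a (chr7:45128742-45128821, − strand).
Rpl37: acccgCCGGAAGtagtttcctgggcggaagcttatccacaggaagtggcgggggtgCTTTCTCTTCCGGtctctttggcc
Rpl13a: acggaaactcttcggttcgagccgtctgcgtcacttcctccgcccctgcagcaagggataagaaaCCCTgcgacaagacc
The Rpl37 promoter has an ETS match on each strand, and the second one overlaps its pyrimidine run of 11 bases.

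The second set holds the 3 longest pyrimidine runs, of 20 bases in Rps2 and Rpl34 and 19 in Rps24. They are Rps2 (chr17:24720050-24720129, + strand), Rpl34 (chr3:130730318-130730397, − strand) and Rps24 (chr14:24490658-24490737, + strand).
Rps2: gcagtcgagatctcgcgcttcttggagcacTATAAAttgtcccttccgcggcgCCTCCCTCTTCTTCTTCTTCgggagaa
Rpl34: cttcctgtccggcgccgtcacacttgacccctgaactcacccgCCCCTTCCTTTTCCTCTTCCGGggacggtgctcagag
Rps24: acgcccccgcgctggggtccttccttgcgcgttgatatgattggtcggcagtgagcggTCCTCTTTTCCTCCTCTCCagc
Rps2 was the only member with an interval that held the TATA box letters at the position searched.

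The third set holds the 2 least open canonical promoters and the 1 canonical promoter whose annotated TSS lay outside any interval. They are Rps4x (chrX:102189375-102189454, − strand), Rps15a (chr7:118116169-118116248, − strand) and Rpl35 (chr2:39005605-39005684, − strand).
Rps4x: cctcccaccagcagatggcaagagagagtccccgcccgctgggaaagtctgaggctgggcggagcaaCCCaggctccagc
Rps15a: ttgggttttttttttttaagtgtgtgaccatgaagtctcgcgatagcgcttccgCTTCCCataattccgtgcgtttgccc
Rpl35: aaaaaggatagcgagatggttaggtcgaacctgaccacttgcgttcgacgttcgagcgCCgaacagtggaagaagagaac

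The last set is a paralog pair, X-linked Rpl10 (chrX:74270752-74270831, + strand), which had an interval, and its intronless copy Rpl10l (chr12:66284382-66284461, − strand), which had none.
Rpl10: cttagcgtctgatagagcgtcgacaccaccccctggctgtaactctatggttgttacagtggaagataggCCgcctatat
Rpl10l: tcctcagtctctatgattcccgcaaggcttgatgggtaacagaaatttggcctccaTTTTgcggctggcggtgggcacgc

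The first question was how many RP promoters were open. Of the 92 members, 81 (88.0%) had an interval overlapping a TSS, against a background of 66.7% of all protein-coding genes. Among the canonical genes the count was 76 of 77, and among the other 15 names it was 5, namely Rps27l, Rpl36al, Rpl22l1, Rps19bp1 and Rpl7l1. The 81 genes held 84 TSS intervals, because Rpl18, Rps10 and Rps14 each had 2, at separate annotated starts. The smallest count in any of these intervals was 148 and the largest 3135.

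Rpl35 was the exception among the canonical genes, and its value of 0 rests on the annotated position. Its TSS lay 5 bp beyond the edge of an interval (chr2:39004647-39005619) that covered the 5′ part of the gene and held 1305 counts in replicate 1 and 1328 in replicate 2. That interval had 1353 normalised counts per kb, well inside the range of the other RP promoters. The remaining 10 members without an interval had nothing near. Their closest interval was 3070 bp away for Rpl3l and 22323 bp away for Rpl39l, and the others (Rpl10-ps3, Rps27rt, Rpl9-ps1, Rpl10l, Rpl36a-ps1, Rpl36-ps4, Rpl9-ps6 and Rps12-ps3) lay between these distances.

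The second question was how open the RP promoters were compared with other promoters. Promoter density was taken as the size-factor normalised counts in a gene's TSS intervals divided by their length in kb. The median over all 92 members, with 0 where no interval was found, was 861.7 ± 19.7 (SD, n = 2 libraries). Among the 81 members with an interval it was 943 in replicate 1 and 881 in replicate 2, against 868 and 839 for all 14638 protein-coding genes with an interval. The ratio was 1.07 ± 0.0255 (SD, n = 2), so as a group these promoters were close to the middle of open promoters. Above the overall median lay 47 of the 81 members (58.0%), where 50% is the background, and 9 of 81 lay above the 90th percentile, where it is 10%. When counts per gene were used in place of counts per kb the ratio turned to 0.814. The scales differ only by interval length, whose median at RP genes was 0.878 of that over all TSS intervals. Density and interval length had a rank correlation of −0.274 over the members and −0.0159 over all genes with an interval.

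The members differed among themselves far more than the libraries did. The highest density was 8.5 times the lowest, and the third quartile was 1.75 times the first. The SD of the 2 libraries had a median of 3.31% of the mean over the members and a highest value of 12.4%. The rank correlation between the libraries over the 81 members was 0.994, a value across genes, which are not independent replicates. In the order of densities, however, only 18 of the 80 neighbouring pairs were separated in both libraries, so the order is firm over long steps and not between neighbours.

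**Figure D1:**
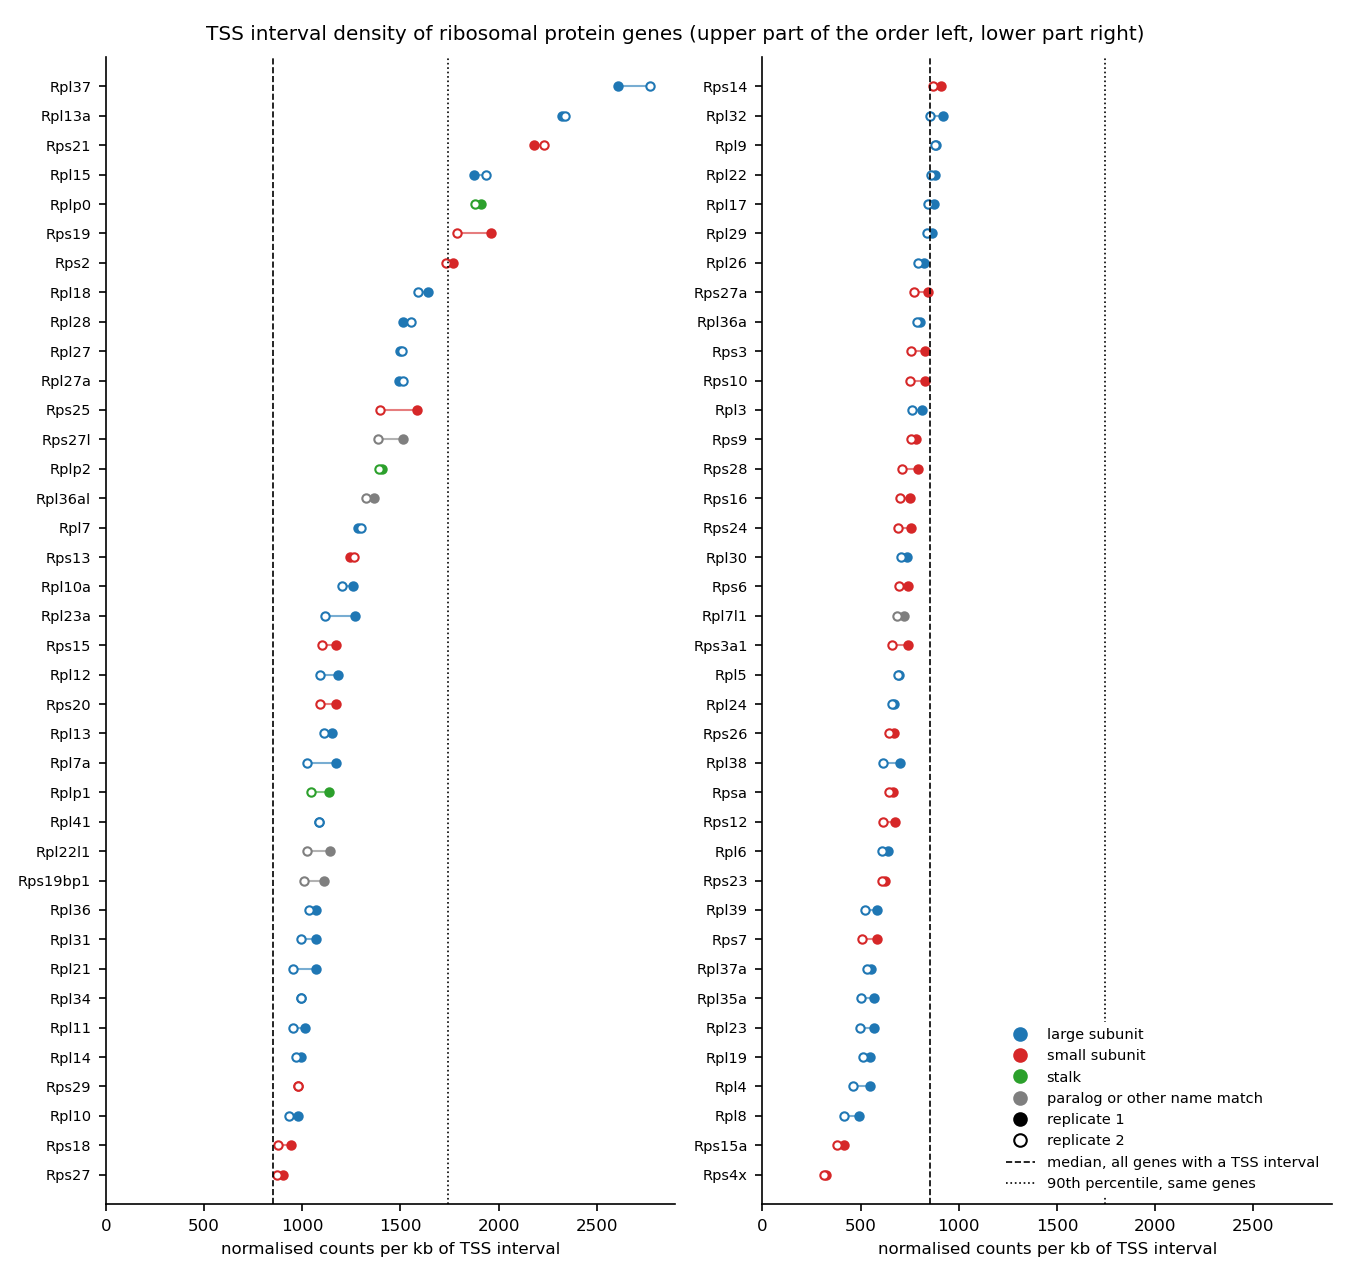
Promoter density (x axis, normalised counts per kb) of 76 of the 81 RP genes with a TSS interval, sorted, with replicate 1 as filled and replicate 2 as open points, coloured by role. The dashed line is the median and the dotted line the 90th percentile of all protein-coding genes with a TSS interval, and members run from 317 for Rps4x to 2690.2 for Rpl37.

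At the top of the order stood Rpl37, a large subunit protein, with 2608 normalised counts per kb in replicate 1 and 2772 in replicate 2. Rpl13a, whose protein also takes part in silencing inflammatory mRNAs after its release from the ribosome, had 2325 and 2336. Rps21, of the small subunit, had 2182 and 2233. All 3 lay above the 90th percentile of protein-coding genes with an interval, which was 1744. Their library ranges did not overlap, so the order of these 3 genes held in both libraries.

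At the bottom stood Rps4x, the X-linked gene of a small subunit protein, with 322 and 312 normalised counts per kb. Rps15a had 413 and 382, Rpl8 had 489 and 415, and Rpl4 had 549 and 461. Rps4x and Rps15a were each separated from every other member in both libraries, while the ranges of Rpl8 and Rpl4 overlapped. The Rps15a interval was 2313 bp long and held 956 and 883 counts. By count it stood at percentile 37.7 of the genes with an interval, and by density at 19.4. Rps4x was low on both scales (percentiles 12.8 and 14.9), with 351 and 340 counts in 1091 bp.

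By role, the large subunit genes with an interval (42 of 43) had a median density of 986 in replicate 1 and 942 in replicate 2, and the small subunit genes (31 of 31) had 829 and 757. Over all canonical genes of each subunit the ratio of large to small was 1.21 ± 0.0368 (SD, n = 2). The quartiles of the 2 subunits ran from 700 to 1179 and from 679 to 1162 and overlapped almost completely, and per gene instead of per kb the ratio was 1.04. The 3 stalk genes were all above the overall median. Rplp0, the base of the stalk, had 1908 and 1880 normalised counts per kb, Rplp2 had 1407 and 1391, and Rplp1 had 1139 and 1044. No overlap was seen among these 3. Rpsa, a small subunit protein also known as a laminin receptor, had 666 and 642.

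Some RPs are made as fusions to ubiquitin or a ubiquitin-like protein. Fau, which supplies Rps30 under another name and is no member by symbol, had 1159 and 1078 normalised counts per kb. Rps27a, a ubiquitin fusion among the members, had 841 and 770 and lay below Fau in both libraries.

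RP genes known for developmental phenotypes or for Diamond-Blackfan anaemia, a red cell disorder of reduced RP dosage, were taken as a list of 12 (among them Rpl5, Rpl11, Rpl24, Rpl35a, Rpl38, Rps6, Rps7, Rps19, Rps20, Rps24 and Rps26). Their median was 698 in replicate 1 and 673 in replicate 2, and 3 of the 12 lay above the overall median, against the background of 50% given above. Those 3 were Rps19, the gene first linked to the anaemia, with 1962 and 1787, Rps20 with 1173 and 1092, and Rpl11 with 1016 and 951. Rpl38, which is needed for translation of a set of Hox mRNAs, had 698 and 614. Rpl24, the gene of the Belly spot and tail mouse, had 669 and 658, and Rpl5 had 698 and 690. Rps24 had 755 and 688, Rps6, the classic substrate of S6 kinase, had 739 and 697, and Rps26 had 669 and 646. Rps7, with 584 and 505, and Rpl35a, with 569 and 501, were lower than these.

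The comparison with other housekeeping machines placed RP promoters among them rather than above them. Genes of the mitochondrial ribosome (78 of 78 with an interval) had a median density of 841 ± 36.6 (SD, n = 2), proteasome subunits (37 of 40) 908 ± 46.2 and NADH dehydrogenase subunits (37 of 38) 867 ± 23.0. The RP value on the same scale was 912 ± 43.5. The quartiles over RP genes, 702 to 1232, overlapped those over proteasome genes, 676 to 1237. Cytosolic translation factors (35 of 35) had 1015 ± 85.2, ribosome biogenesis factors (30 of 30) 1071 ± 31.4 and other genes with TOP mRNAs (16 of 16) 912 ± 27.5. The 4 progenitor genes named above had 904 ± 24.5.

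**Figure D2:**
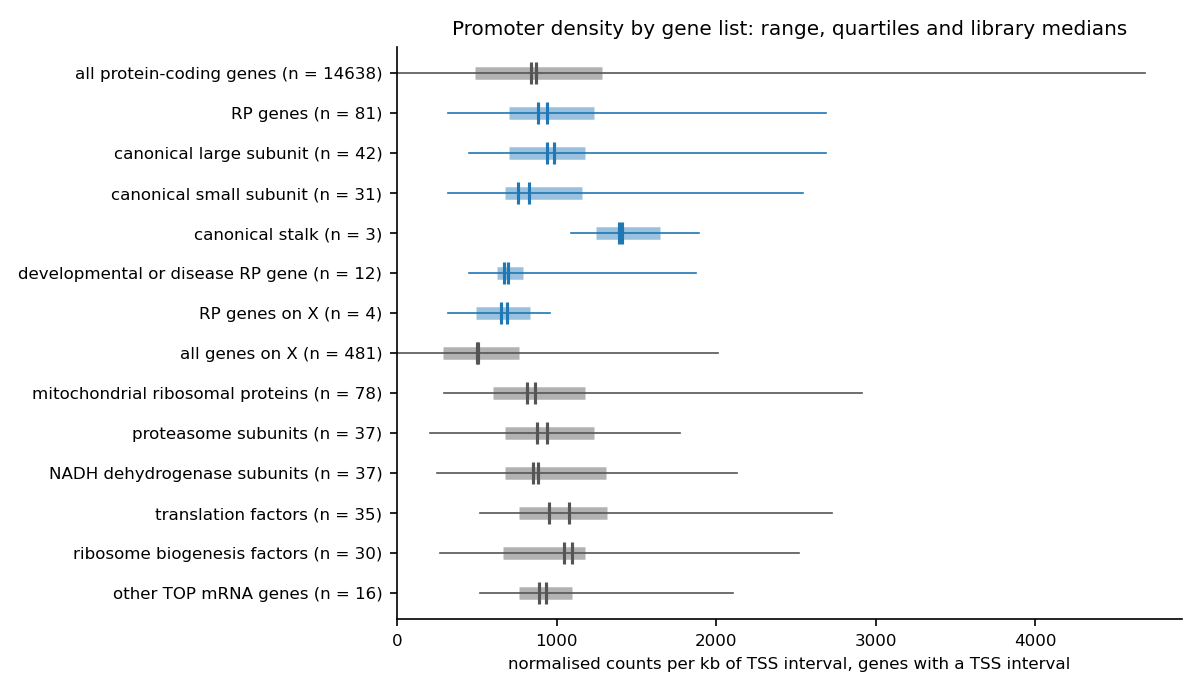
Promoter density (x axis, normalised counts per kb) of genes with a TSS interval in each list, with the number of genes in brackets, as the full range (thin line), quartiles (thick bar) and the median in each of the 2 libraries (ticks). The RP genes (median 912) sit beside the mitochondrial ribosomal, proteasome and NADH dehydrogenase genes, and the X chromosome lists lie lower.

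RP promoter intervals were compact. Their median length was 1064 bp against 1212 bp over all 14870 TSS intervals, a ratio of 0.878, with extremes of 400 and 2883 bp. Around the representative TSS the median reach was 471 bp upstream and 599 bp downstream, against 471 and 691 bp over the 13707 genes whose representative TSS lay in an interval. The difference in the medians was thus on the transcribed side. Short reaches into the gene were seen at some of the most open promoters, with 228 bp for Rpl13a and 359 bp for Rpl37. The longest, at Rpl41, reached 2866 bp downstream and 16 bp upstream of the TSS and also held the TSS of Zc3h10. The Rpl7 interval reached 1836 bp upstream over the divergent gene Rdh10. The 84 intervals were 0.118% of all interval bases and held 0.314% of the counts of replicate 1 and 0.303% of replicate 2. They were 0.565% of the TSS intervals and held 0.565% and 0.555% of the counts in TSS intervals.

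**Figure D3:**
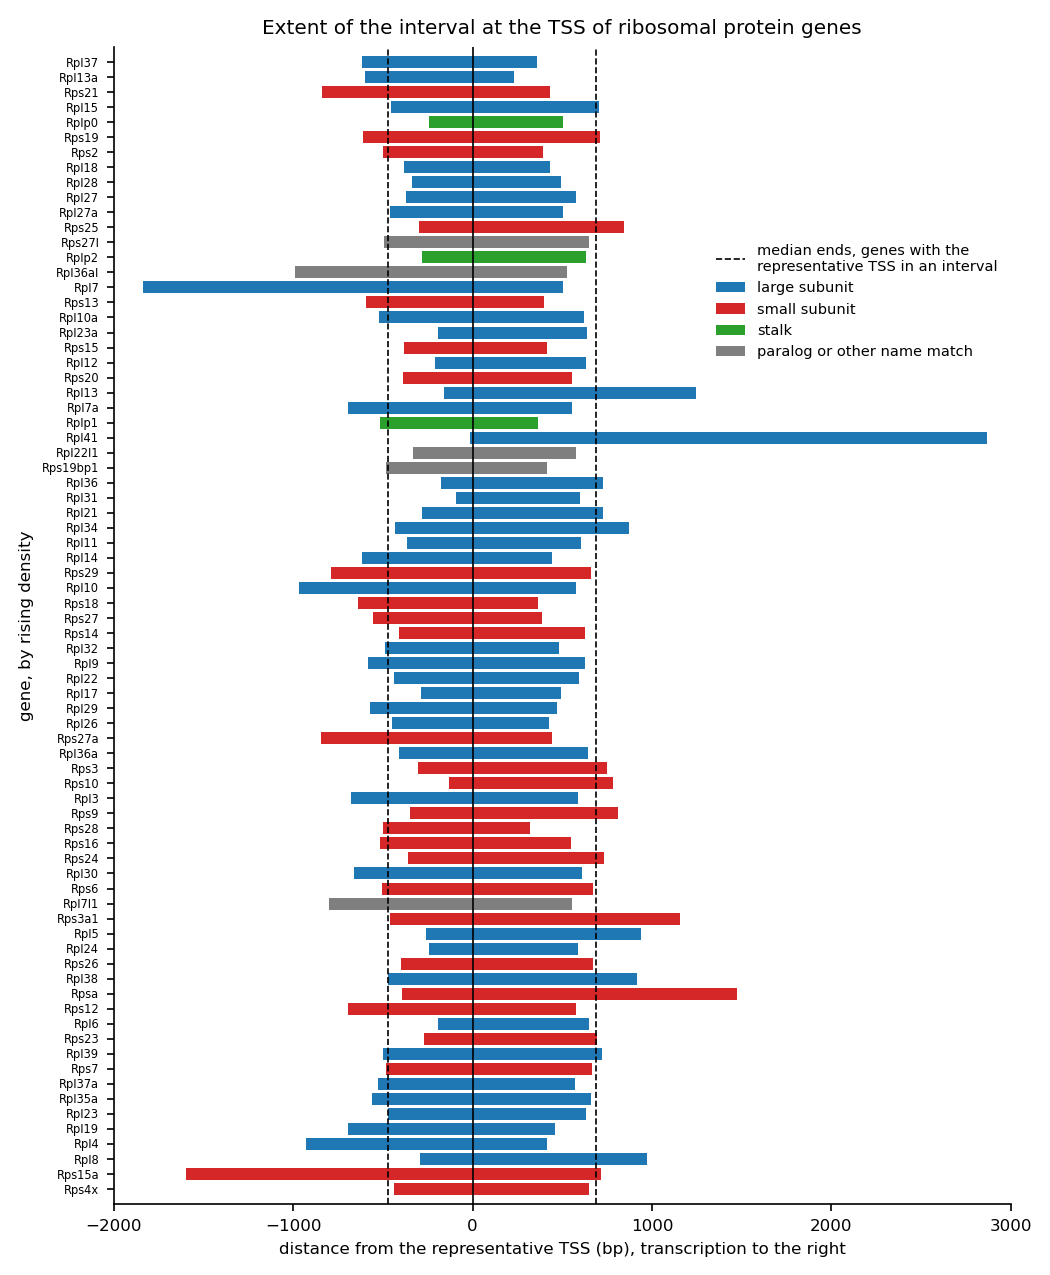
Extent of the interval at the representative TSS of 76 RP genes (x axis, bp from the TSS, transcription to the right), sorted by density with the most open at the top and coloured by role. Dashed lines mark the median ends over the 13707 genes whose representative TSS lay in an interval, 471 bp upstream and 691 bp downstream, and many RP intervals stop short of the downstream line.

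The promoter sequences were then searched for letters of known factors in the window from 250 bases before to 50 bases after the TSS, on both strands, over the 81 members and over all 14638 genes with an interval. These matches are descriptions of the sequence and not of binding. The ETS letters CCGGAAG, the core of GABP sites, were found in 28 of 81 RP promoters (34.6%, 95% Wilson interval 25.1 to 45.4%) and in 15.7% of all. They included Rpl37, Rps21 and Rps2 among the most open and Rpl8 and Rps7 among the least. CTTT beginning between positions −10 and +10 on the transcribed strand, taken as the TCT initiator, was found in 20 of 81 (24.7%, interval 16.6 to 35.1%) and in 7.35% of all. The YY1 letters AANATGGC were found in 11 of 81 (13.6%, interval 7.76 to 22.7%) against 7.61%, and the CRE letters TGACGTCA in 6 of 81 (7.41%, interval 3.44 to 15.2%) against 3.18%.

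The remaining motifs were about as common in RP promoters as elsewhere. The SP1 letters GGGCGG stood in 55.6% of RP and 63.0% of all promoters, the NFY letters CCAAT in 30.9% and 37.3%, the NRF1 motif in 7.41% and 8.98%, and the E-box letters CACGTG in 12.3% and 9.61%. The TATA box letters TATAAA, searched on the transcribed strand with starts from −40 to −15, were found in 1.23% and 1.06%. For each of these 5 motifs the share of all genes lay within the Wilson interval of the RP share.

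Long pyrimidine runs at the TSS were then counted in each list, without a test between lists. A run of at least 8 bases touched the TSS in 28 of 81 RP genes (34.6%) and in 11.1% of all genes. Among the lists it was found in 8 of 16 other TOP genes (50.0%) and 13 of 35 translation factors (37.1%), and in 7 of 78 mitochondrial RP genes (8.97%), 5 of 37 NADH dehydrogenase genes (13.5%), 2 of 37 proteasome genes (5.41%) and 2 of 30 biogenesis factors (6.67%). The ETS letters stood in 29 of 78 mitochondrial RP promoters (37.2%), 12 of 30 of the biogenesis factors (40.0%), 12 of 35 of the translation factors (34.3%) and 12 of 37 of the proteasome promoters (32.4%), in 4 of 16 promoters of other TOP genes (25%) and in 5 of 37 NADH dehydrogenase promoters (13.5%). The lists overlap, because most of the other TOP genes are also in the list of translation factors. The TOP list also shares a gene with the biogenesis factors. Wherever values of the TOP genes and the translation factors are both given, they are therefore not separate observations.

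How many RP genes show the TCT letters depends on the annotated start. With any annotated TSS of a gene, 39 of 81 members (48.1%) had CTTT at a start and 48 (59.3%) a run of at least 8, against 18.3% and 24.2% of all genes, with a median of 2 start sites per gene in both groups. This alternative was chosen after seeing the data. With the starts of the RefSeq promoter table, which holds 61 of the 81 members, the share with CTTT was 26.2%. Only 13 of these 61 have the same TSS base in both annotations, and 44 are within 50 bases.

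**Figure D4:**
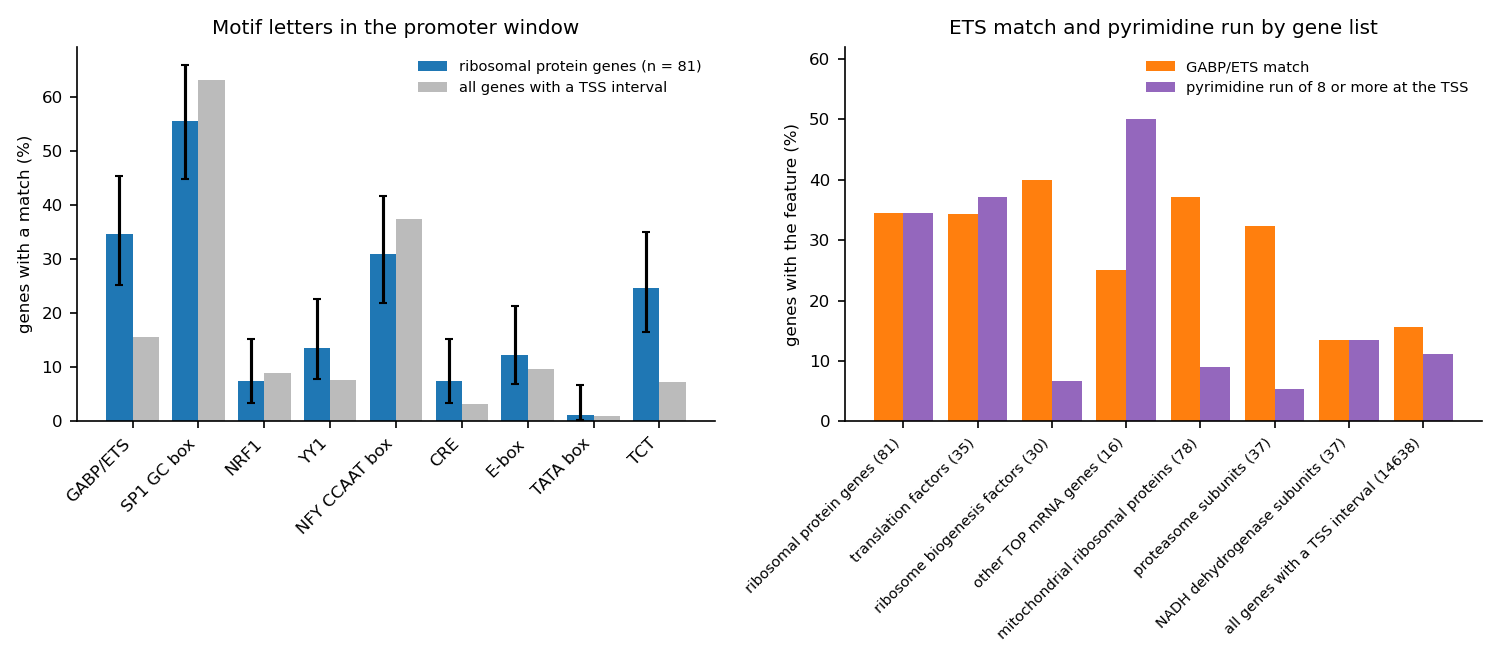
Left, percentage of the 81 RP genes (blue, with 95% Wilson intervals) and of all genes with a TSS interval (grey) whose promoter window held each motif. Right, percentage of each list with a GABP/ETS match (orange) and with a pyrimidine run of 8 or more bases at the TSS (purple), where RP genes stand at 34.6% for both and mitochondrial RP genes at 37.2% and 8.97%.

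RP promoters were less rich in G and C than open promoters in general, with a median of 56.5% against 60.8%, but their ratio of observed to expected CpG dinucleotides was higher, at 0.855 against 0.737. Rpl41 had the lowest GC content, 36.9%, and Rpl36al the highest, 69.8%. For Rpl41 most of the sequence window lay outside its interval, which reached only 16 bp upstream of the TSS. Across the 81 members the rank correlation of density with GC content was 0.481, and over all genes with an interval it was 0.250. With the CpG ratio the values were 0.0675 and 0.372, and with the length of the pyrimidine run the value for members was −0.0523. These are descriptions over genes measured in the same libraries. RP genes with an ETS match had a median density of 902 and those without of 955, while all genes had 1039 with it and 815 without. RP genes with the TCT letters had 834 and those without 974, where all genes had 768 and 861. The 45 RP genes with the SP1 letters had 1059.7 and the 36 without had 831, where all genes had 940 and 693. The 25 RP genes with the NFY letters had 1132 and the 56 without had 868, where all genes had 992 and 792. The 11 RP genes with the YY1 letters had 753 and the 70 without had 969.9, while all genes had 971 with them and 843 without. None of these splits was tested.

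The third question was whether copies of RP genes were open. The functional paralogs fell into 2 kinds. Rps27l had 1513 and 1386 normalised counts per kb where Rps27 had 903 and 872, Rpl36al had 1366 and 1327 where Rpl36a had 802 and 785, and Rpl22l1 had 1143 and 1027 where Rpl22 had 880 and 858. In each of these 3 pairs the paralog was the higher in both libraries, without overlap. The Rpl36al interval also held the TSS of Mgat2 and the Rps27 interval that of Rab13, and Rpl36a lies on the X chromosome, where the median over all genes with an interval was 505. Rpl7l1, with 721 and 684, was lower than Rpl7, with 1284 and 1299.

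The other kind had no interval at all. Rpl3l, a paralog of heart and skeletal muscle, had none where Rpl3 had 813 and 763. Rpl10l and Rpl39l, both known from the male germ line, had none where Rpl10 had 978 and 933 and Rpl39 had 582 and 524. Rps27rt, an intronless copy of Rps27, also had none. Since weak intervals are listed only where a peak was called, a missing interval is not a count of 0.

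Mammalian genomes hold many processed pseudogenes of RPs, copies of their mRNAs without the promoter. GENCODE names 294 RP pseudogenes, and 6 of them had an interval at the 5′ end, against a background of 2.56% (262 of 10236) of all processed pseudogenes. In all, 8 RP pseudogenes (2.72%) overlapped an interval, against 4.41% of all processed pseudogenes. One of the 8, Rpl29-ps2, lay under a TSS interval of a protein-coding gene that had 1601 normalised counts per kb. The intervals of the other 7 had a median of 85.6 normalised counts per kb, below the 123 of distal intervals in general. Fragments within exon sequence that a gene shares with its copies are uncertain in their placement.

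Density was also compared by chromosome, without a test. The 4 X-linked members, Rpl10 with 978 and 933 normalised counts per kb, Rpl36a with 802 and 785, Rpl39 with 582 and 524 and Rps4x with 322 and 312, had a median of 673 ± 26.7 (SD, n = 2) against 965 ± 20.2 for the 77 autosomal members with an interval. All X-linked genes with an interval had a median of 505 ± 4.29, which is also below the autosomal level. Rpl13, on chromosome 8, had 1154 and 1111, where all chromosome 8 genes with an interval had a median of 1232 ± 28.6. Without X, Y and chromosome 8 the ratio of RP genes to all genes was 1.07. Chromosome 7 carries 14 members, among them Rpl13a, Rps19 and Rpl18 but also Rps15a. Their median was 1451 ± 1.44 where all chromosome 7 genes with an interval had 845 ± 13.4. The genes themselves varied widely, with quartiles of 776 and 1611. Above the overall median lay 9 of the 14 (64.3%), against 58.0% of all members with an interval.

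Some RP promoters are shared. In 17 of the 81 members (21.0%) the TSS interval also held the TSS of another protein-coding gene, against 17.5% of all genes with an interval, and in 15 of the 17 that gene lay on the opposite strand. Such head-to-head pairs were Rpl7 with Rdh10, Rpl7a with Med22, Rpl12 with Lrsam1, Rps27 with Rab13, Rpl9 with Lias, Rpl18 with Sphk2, Rps25 with Trappc4 and Rpl4 with Zwilch. Counts in these intervals cannot be divided between the partners. The shared promoters had a median of 943 in replicate 1 and 881 in replicate 2, and the unshared ones 949 and 895. The quartiles over genes, 806 to 1292 and 686 to 1203, overlapped.

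RP introns also house small nucleolar RNAs (snoRNAs), which guide modification of ribosomal RNA. Here 30 of the canonical members contained 58 snoRNA genes, with Rpl4 holding 5 and Rpl13a 4. Hosts had a median density of 984 ± 56.0 and the other members with an interval 893 ± 20.6. The quartiles over genes, 706 to 1239 and 710 to 1185, overlapped almost completely, and this split was not tested. Around the members, the median number of distal intervals within 50 kb was 8, from 1 to 16, and around all genes with an interval it was 6.

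The last comparison was between the 2 libraries, by a two-sided exact binomial test of each interval with Benjamini-Hochberg adjustment over all 119502 intervals. It compares these libraries and not conditions. At an adjusted limit of 0.01 it called 0 of the 84 RP intervals, where the background is 0%. At an unadjusted p under 0.05 it marked 20 of 84 (23.8%), against 12.7% of TSS intervals and 7.84% of all intervals. The same share was 33.3% for other TOP genes, 29.7% for translation factors and 23.3% for ribosome biogenesis factors. It was 11.1% for mitochondrial RP genes, 10.5% for proteasome subunits and 8.11% for NADH dehydrogenase subunits. RP intervals were lower in replicate 2 in 72 of 84 cases (85.7%), against 66.6% of TSS intervals. The median log2 ratio of replicate 2 to replicate 1 was −0.06 and that of TSS intervals −0.03, so the shift is small next to the range between genes.

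The share lower in replicate 2 varied among the comparison lists, and the differences were not tested. It was 86.7% for ribosome biogenesis factors (26 of 30), 83.3% for other TOP genes (15 of 18) and 81.1% for translation factors (30 of 37). Mitochondrial RP genes had 77.8% (63 of 81) and proteasome subunits 71.1% (27 of 38). NADH dehydrogenase subunits had 67.6% (25 of 37), near the 66.6% of TSS intervals. When the 84 intervals were split by density into 4 sets of 21, the median log2 ratio was −0.12 in the lowest set, where TSS intervals of the same densities had −0.04, and −0.02 in the highest, where they had −0.03. In the 2 sets between it was −0.07 and −0.09, where they had −0.05 and −0.04. What the libraries differ in was not tested.

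Among the members furthest apart were Rpl4, with 736 and 618 counts and a log2 ratio of −0.25 (adjusted p = 0.284, exact binomial test) and Rpl8, with 620 and 527 counts and −0.24 (adjusted p = 0.401, exact binomial test). Neither passed the adjusted limit. Rpl37, the most open member, went the other way, with 2542 and 2704 counts and a log2 ratio of 0.09. The labels do not say whether the replicates came from separate differentiations, so a difference between them may be technical. The binomial test treats fragments as independent, and its p covers counting error only. The chi-square of an interval's 2 counts averaged 2.56 at RP and 1.70 at TSS intervals, where counting error alone gives about 1.

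**Figure D5:**
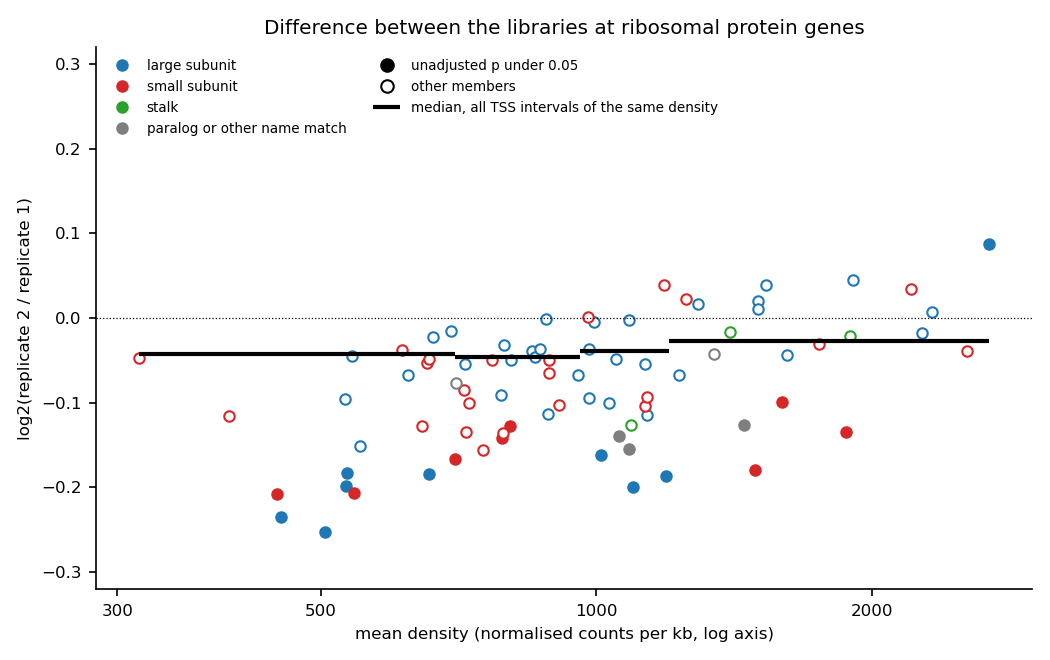
Log2 ratio of replicate 2 to replicate 1 (y axis) against mean density (x axis, log scale) for the 81 RP genes with a TSS interval, coloured by role, filled where any interval of the gene has an unadjusted exact binomial p under 0.05. Black bars give the median over all TSS intervals in the same density range, from −0.05 to −0.03, and most RP genes of low density lie under them.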

How the data were processed

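Raw fragment counts of 2 live-cell ATAC-seq libraries were used. The authors aligned reads to mm10 with the nf-core atacseq pipeline, called peaks with MACS, merged them into consensus intervals and deposited the counts. Per the file headers, featureCounts 2.0.1 assigned a fragment to every interval that took in a fraction of at least 0.2 of it. The table covers 5 libraries, and 3 columns that belong to no sample here were left out. The submitters' processing notes also name DESeq2.

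Size factors of DESeq2 (1.42.0) scaled the counts. A TSS was the 5′ end of a protein-coding transcript in GENCODE M21, and densities summed a gene's TSS intervals. Medians were taken per library and given as mean ± SD. One representative transcript per gene (principal by APPRIS, then best supported) set the sequence windows, read with pysam 0.24.0. RefSeq's promoter table (GRCm38.p6) matched 66 of 92 members. Statistics used Python 3.11.15, numpy 2.4.6, scipy 1.17.1 and pandas 2.3.3. The interval test was first tried on simulated counts drawn from the binomial model that it assumes. That check does not cover the spread of the real libraries beyond counting error. Fragments carry no molecular identifiers, so binomial p-values cover counting error only. Wilson intervals describe shares of genes.

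The members, lists, motifs and tests were chosen with earlier results of these data known. Named genes were members without an interval or with under 20 counts, the 5 highest and 5 lowest canonical members, the 3 with the largest library difference, stalk genes and Rpsa, members on X and chromosome 8, up to 8 shared promoters, paralog pairs, RPs under other symbols, and the developmental list. A few genes that this rule or a plot would name are left unreported, though they stay in the counts and medians. Genes named for motifs, interval shape, chromosome 7 or snoRNAs, and the printed sequences, were chosen after their values were seen. Rpl26l1 and Rps4l, 2 further paralogs, are not protein-coding in this annotation and were not analysed here. Alternatives covered the scaling (edgeR 4.0.16 TMM or total counts), the TSS definition, length division, low-count filters and each replicate alone.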

Additional observations from a re-analysis of the deposited data

How the results depend on the processing

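Of 47 alternative values, 36 stayed within the spread of the main one. With the gene's 5′ end as the only TSS, the median RP density was 812.1 and the large to small subunit ratio 1.259. With counts per gene in place of counts per kb, the median was 933.3 counts and the subunit ratio fell to 1.037. The ratio of RP genes to all genes reversed to 0.8143. That ratio was 1.128 with the TSS of every transcript and 1.155 with intervals within 1 kb of a TSS. Over canonical genes the median was 889.7 and the share with an interval 98.7%. The ratio of interval lengths was 0.8485 among intervals with a mean of at least 100 counts. The share of RP genes with the TCT letters was 48.15% when any annotated TSS counted, an alternative added after seeing the data. With 1 library at a time the median density ranged from 847.7 to 875.6, the ratio to all genes from 1.05 to 1.086 and the subunit ratio from 1.18 to 1.232. TMM and total-count scaling changed none of these, and the binomial test called 0 RP intervals under every scaling and filter tried. The lowest count in an RP interval was 148, and depth and library difference were not separated as limits. Pairing was not applicable, as there is a single group.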
